A study of Mus musculus with 15 samples.

Results

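The D-type cyclins and the cyclin-dependent kinase (CDK) inhibitors set whether a cell passes from G1 into S phase, and their 10 genes were followed through the change of mouse optic tissue towards neural retina or pigmented epithelium in culture. The genes were Ccnd1, Ccnd2 and Ccnd3 (D-type cyclins), Cdkn1a, Cdkn1b and Cdkn1c (Cip/Kip inhibitors), and Cdkn2a, Cdkn2b, Cdkn2c and Cdkn2d (Ink4 inhibitors). They were taken by symbol, and 10 of 10 were found among the 23244 entries of the expression table. The tissue came from aggregates of EB5 Rx::GFP+/- mouse embryonic stem cells grown by the SFEBq method, in which the cells form a floating epithelium with serum-free medium. GFP reports the eye field gene Rx, and all 15 libraries came from this 1 cell line. On Day 10, GFP+ epithelium was cut out with forceps and was either collected untreated (Day 10 Rx::GFP+) or cultured further. For the +Wnt groups, explants received the GSK3 inhibitor CHIR99201, which stabilizes β-catenin, first at 3 μM over 24 h and then at 1 μM. In the +Fgf groups, the explants received human recombinant bFgf at 5 ng/ml with 10% FBS. Tissue was collected on Day 12 and Day 15, giving 5 groups of 3 libraries. Serum was part of the +Fgf condition only, and no RNA-Seq library of an explant without either stimulus was analysed here at Day 12 or Day 15, so that the effects of bFgf and of serum, and those of a stimulus and of time in culture, cannot be told apart.

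D-type cyclins bind and activate CDK4 and CDK6, which phosphorylate the retinoblastoma protein and so release E2F transcription factors that drive S phase genes. Ink4 proteins bind CDK4 and CDK6 and block the joining of cyclin D, while Cip/Kip proteins bind cyclin-CDK complexes of several kinds and chiefly inhibit CDK2. In the developing retina, Ccnd1 is the main D-type cyclin of progenitor cells, and Cdkn1b and Cdkn1c are known for roles in cell cycle exit.

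Expression was measured by RNA-Seq of poly(A) RNA, and values are the normalized levels that the submitters call CPM. They are read counts scaled by a factor for each library, and they sum to 936418 to 1075448 per library, so the factor is not the plain library size. Every value above 0 was a whole number of reads times the worth of 1 read in its library (0.062 to 0.0764 CPM), which gave library sizes of 12556998 to 16175450 reads (median 15073047). Differences are log2 fold changes on the log2(CPM + 0.3) scale from 1 limma fit to all 15 libraries, over the 13845 genes that reached 1 CPM, here computed from the column total of each library, in at least 3 libraries. A gene was called where its Benjamini-Hochberg adjusted p, over all tested genes of a comparison, was under 0.05. The study calls the 3 libraries of a group biological replicates. All come from 1 cell line, and whether each came from its own differentiation is not given in the sources used here, so that p-values measure the spread between these samples. Of the markers of neural retina progenitors, Rax, the gene that GFP reports, had 286.6 to 342.7 CPM in the Day 15 +Fgf libraries and 5.15 to 5.83 CPM in those of Day 15 +Wnt, and Six6 had 215.9 to 231.9 CPM against 1.12 to 2.16 CPM. The summed pigmented epithelium list lay at 236.3 to 307.3 CPM in Day 15 +Fgf against 5267.2 to 6806.8 CPM in Day 15 +Wnt, with 7 of 7 tested genes lower in +Fgf, although its visual cycle gene Rpe65 had at most 3 reads in every library of all 5 groups. Of all tested genes, 30.6% were called lower in Day 15 +Fgf than in Day 15 +Wnt.

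All 10 genes entered the tests. Cdkn2a and Cdkn2b did so only through their higher groups, since they reached that level in 8 and 7 of the 15 libraries, respectively. Both are kept in the counts below. Their calls as higher in +Fgf groups are therefore not independent of the filter and add no support of their own to these counts. From Day 10 to Day 12 with +Fgf, 10 of the 10 genes were called, 9 higher and 1 lower, where 55.7% of all tested genes were called, 27.9% higher and 27.8% lower. With +Wnt to Day 12, 8 were called, 5 higher and 3 lower, against 60.2% of all genes (30.6% higher and 29.6% lower). To Day 15, 8 were called with +Fgf, 5 higher and 3 lower, against 72.6% (36.2% higher and 36.4% lower). With +Wnt, 7 were called by Day 15, 3 higher and 4 lower, against 79.8% (39.6% higher and 40.2% lower). These 4 comparisons share the Day 10 libraries. Between Day 12 and Day 15, 10 genes were called in +Fgf tissue, 4 higher and 6 lower, against 57.1% (27.2% higher and 29.9% lower). In +Wnt tissue 4 were called, 3 higher and 1 lower, against 68.0% (32.5% higher and 35.5% lower). Between +Fgf and +Wnt tissue, 7 were called at Day 12, 6 higher and 1 lower in +Fgf, against 51.5% (26.3% higher and 25.2% lower). At Day 15, 10 were called, 7 higher and 3 lower in +Fgf, against 68.7% (38.0% higher and 30.6% lower). A test of whether the stimuli differed in their Day 12 to Day 15 change called 8 genes, 4 in each direction, against 47.9% (27.0% higher and 20.9% lower). With the RNA integrity number of each library as a covariate, 4 genes in place of 10 were called between the Day 15 groups, namely Ccnd1, Cdkn1a, Cdkn1b and Cdkn2d, while the share over all genes was 46.0%. Of the 6 lost calls, the values of Cdkn2a (1.05 to 1.33), Cdkn2b (0.81 to 0.71) and Ccnd3 (0.29 to 0.26) changed little or grew, and those of Cdkn1c (-0.45 to -0.23), Cdkn2c (0.63 to 0.17) and Ccnd2 (-0.55 to 0.12) shrank or turned. The integrity number was on average lowest in the Day 15 +Fgf group, so that this covariate and the group are in part confounded.

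**Figure D1:**
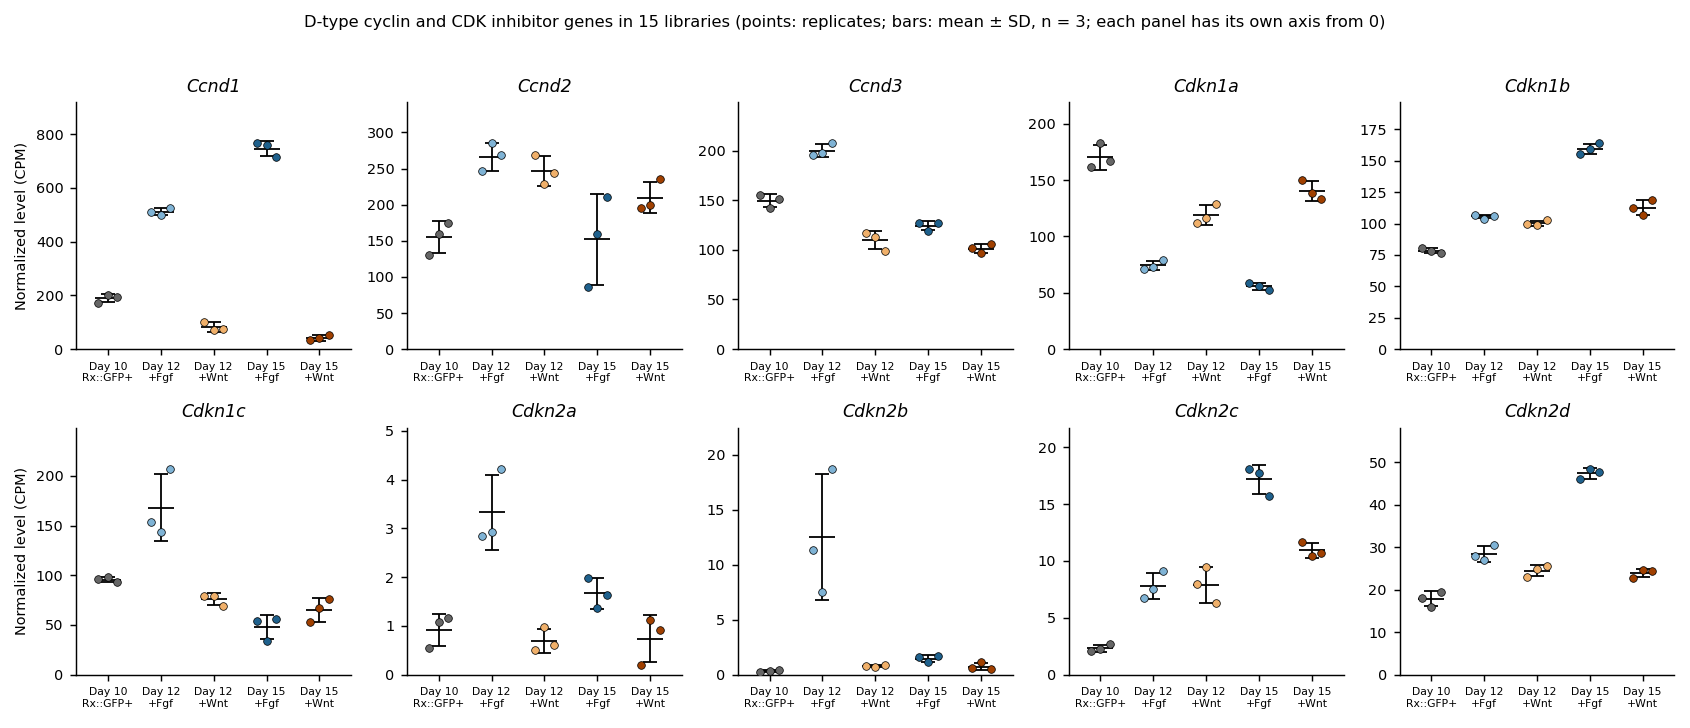
Normalized level (CPM) of the 10 genes in each of the 15 libraries; points are replicates and bars are the mean ± SD of 3 libraries, on a separate axis from 0 for each gene. The Day 15 +Fgf libraries have 714.4 to 765.4 CPM of Ccnd1 and those of Day 15 +Wnt have 33.4 to 53.8 CPM, and Cdkn2b stands above 7 CPM only in the Day 12 +Fgf libraries.

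Ccnd1 differed most between the 2 stimuli at Day 15 among the 10 genes, with opposite changes from Day 10. It lies on chr7:144929931-144939925 (minus strand, mm10). The Day 10 Rx::GFP+ libraries had 172.1, 200.4 and 194.6 CPM. With +Fgf, the level was 509.3, 499.2 and 524.6 CPM at Day 12 and 765.4, 758.4 and 714.4 CPM at Day 15. With +Wnt, it was 102.0, 70.2 and 74.6 CPM at Day 12 and 33.4, 40.3 and 53.8 CPM at Day 15. No 2 of the 5 groups overlapped, and their order from the highest was Day 15 +Fgf, Day 12 +Fgf, Day 10, Day 12 +Wnt and Day 15 +Wnt. Against Day 10, Ccnd1 rose 2.71-fold by Day 12 with +Fgf (log2 1.44, SE 0.14, adjusted p = 2.64e-07) and 3.95-fold by Day 15 (log2 1.98, adjusted p = 1.26e-09). It fell 2.32-fold by Day 12 with +Wnt (log2 -1.21, SE 0.14, adjusted p = 1.29e-06) and 4.50-fold by Day 15 (log2 -2.17, adjusted p = 2.08e-10). The 2 stimulated tissues thus stood 6.28-fold apart at Day 12 and 17.8-fold apart at Day 15 (log2 4.15, SE 0.14, adjusted p = 2.11e-13), and without any 1 library the Day 15 difference stayed between 3.99 and 4.33. Exons of Ccnd1 share 1100 bases with those of LTO1, a protein-coding gene on the opposite strand, and the strand setting of the read counting is not given in the sources used here. In bulk tissue, fewer expressing cells and less RNA per cell cannot be told apart, for this gene and those that follow.

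Ccnd2, on chr6:127125162-127152193 (minus strand), did not follow Ccnd1. The Day 10 libraries had 130.7, 159.2 and 174.7 CPM, and the Day 12 libraries had 246.3, 284.7 and 268.1 CPM with +Fgf and 269.3, 228.7 and 243.3 CPM with +Wnt. Both Day 12 groups were above Day 10 in every library and overlapped each other. Ccnd2 rose 1.73-fold with +Fgf (log2 0.79, SE 0.21, adjusted p = 0.00442) and 1.60-fold with +Wnt (log2 0.68, SE 0.21, adjusted p = 0.0102), and the 2 tissues differed by a log2 value of 0.11 (95% interval -0.33 to 0.55, adjusted p = 0.691). Without Day 10 replicate 1 the +Wnt change had adjusted p = 0.0501, and with the RNA integrity number as a covariate both rises were no longer called (adjusted p = 0.335 and 0.286). At Day 15 the +Wnt libraries had 195.0, 199.6 and 235.1 CPM, whereas the +Fgf libraries were spread over 86.2, 158.9 and 211.2 CPM. Replicate 1 of Day 15 +Fgf was the lowest of all 15 libraries, and the group overlapped both Day 10 and Day 15 +Wnt. The Day 15 difference (log2 -0.55, SE 0.21, adjusted p = 0.0273) became -0.19 (adjusted p = 0.189) without that replicate, -0.47 (adjusted p = 0.096) without Day 15 +Wnt replicate 3, and 0.12 with the RNA integrity number as a covariate. The fall from Day 12 to Day 15 with +Fgf was 1.86-fold (log2 -0.90, SE 0.21, adjusted p = 0.00155), or -0.54 without Day 15 +Fgf replicate 1, and it was not called with that covariate (log2 -0.15, adjusted p = 0.812). Ccnd2 exons share 372 and 368 bases with the antisense genes Gm43126 and 9330179D12Rik.

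Ccnd3, on chr17:47505051-47599691 (plus strand), was highest in Day 12 +Fgf. Its libraries had 155.1, 142.2 and 151.1 CPM at Day 10, 195.4, 197.6 and 207.1 CPM in Day 12 +Fgf, and 116.9, 112.5 and 99.3 CPM in Day 12 +Wnt. By Day 15 they had 126.7, 119.2 and 126.8 CPM with +Fgf and 101.8, 96.5 and 105.6 CPM with +Wnt. The 2 +Wnt groups overlapped, and every other pair of groups was apart. Ccnd3 rose by a log2 value of 0.42 (SE 0.06, adjusted p = 1.39e-05) from Day 10 to Day 12 with +Fgf and then fell by 0.69 on the log2 scale to Day 15 (adjusted p = 4.48e-08). With +Wnt it fell by 0.45 to Day 12 (adjusted p = 5.34e-06), and its further difference of -0.11 to Day 15 was not called (adjusted p = 0.0996), except without Day 12 +Wnt replicate 3, where it was -0.18 (adjusted p = 0.00818). The +Fgf tissue was higher by 0.87 at Day 12 (SE 0.06, adjusted p = 2.22e-09) and by 0.29 at Day 15 (adjusted p = 0.000251), and the latter value was 0.26 (adjusted p = 0.062) with the RNA integrity number as a covariate. Exons of Ccnd3 share 361 bases with the protein-coding gene Bysl on the opposite strand.

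Per kilobase of transcript, a scale on which different genes can be compared, the summed D-type cyclin level was 150.6 ± 5.45 CPM per kilobase at Day 10 (SD, n = 3). It was 279.9 ± 6.86 in Day 12 +Fgf and 286.4 ± 3.47 in Day 15 +Fgf, against 116.5 ± 10.9 in Day 12 +Wnt and 95.8 ± 7.93 in Day 15 +Wnt. Ccnd1 made up 33.5% of this sum at Day 10, 48.8% and 69.7% in Day 12 and Day 15 +Fgf, and 18.8% and 11.8% in Day 12 and Day 15 +Wnt. The largest part at Day 10 was Ccnd3, with 50.3%, and it stayed the largest in both +Wnt groups, with 47.7% and 53.6%. Ccnd2 took 33.6% and 34.6% in the +Wnt groups but 15.0% and 8.37% in the +Fgf groups.

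Within each library, the ratio of Ccnd2 to Ccnd1 is untouched by library scaling. Its log2 value in CPM was -0.40, -0.33 and -0.16 at Day 10. It was -1.05, -0.81 and -0.97 in Day 12 +Fgf and -3.15, -2.25 and -1.76 in Day 15 +Fgf. In +Wnt tissue it was 1.40, 1.70 and 1.70 at Day 12 and 2.53, 2.30 and 2.12 at Day 15, so that every +Wnt library was above 0 and every other library below 0. The +Fgf minus +Wnt difference was -2.54 at Day 12 and -4.70 at Day 15, and an exact two-sided permutation test gave p = 0.1 for each, the smallest p that 3 against 3 libraries allow.

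**Figure D2:**
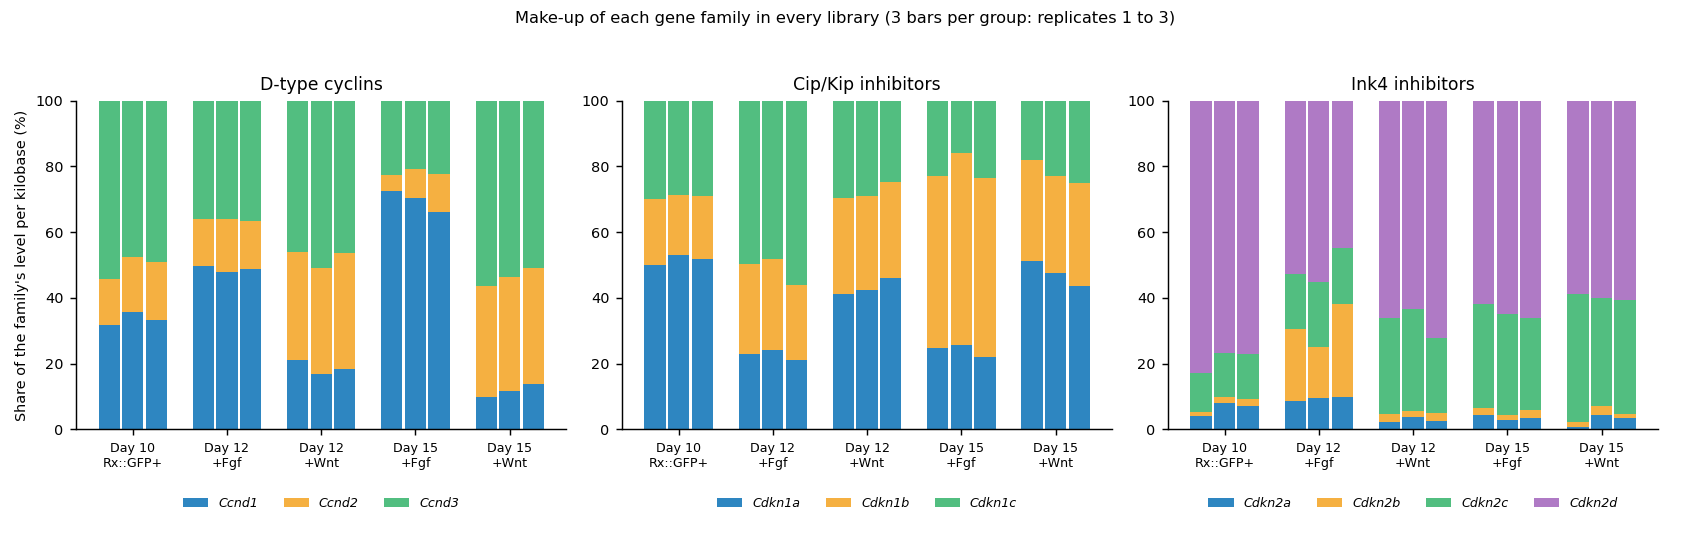
Share (%) of each gene in its family's summed level per kilobase of transcript, with 3 bars per group for replicates 1 to 3, for D-type cyclins, Cip/Kip inhibitors and Ink4 inhibitors. Ccnd1 makes up 66.2% to 72.5% of the D-type cyclin level in the Day 15 +Fgf libraries and 9.8% to 13.7% in the Day 15 +Wnt libraries, and Cdkn2b makes up 15.7% to 28.2% of the Ink4 level in Day 12 +Fgf.

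Cdkn1a encodes p21, the inhibitor that the tumour suppressor p53 induces. Of the 10 genes it was the only one lower than at Day 10 in all 4 stimulated groups by the test. It lies on chr17:29090976-29100727 (plus strand). Its level was 161.3, 182.4 and 166.6 CPM at Day 10. It was 71.5, 72.7 and 79.2 CPM in Day 12 +Fgf and 59.1, 55.8 and 52.9 CPM in Day 15 +Fgf. In +Wnt tissue it was 111.5, 116.4 and 128.9 CPM at Day 12 and 150.1, 138.9 and 132.8 CPM at Day 15. No 2 groups overlapped, with Day 10 the highest and Day 15 +Fgf the lowest. With +Fgf, Cdkn1a fell 2.28-fold by Day 12 (log2 -1.19, SE 0.07, adjusted p = 7.08e-10) and 3.03-fold by Day 15 (log2 -1.60, SE 0.07, adjusted p = 3.25e-12). With +Wnt, it fell 1.43-fold by Day 12 (log2 -0.52, adjusted p = 5.6e-06) and then rose by 0.24 to Day 15 (adjusted p = 0.00405). Its Day 15 value against Day 10 was -0.27 (adjusted p = 0.00122), but -0.02 after quantile normalization (adjusted p = 0.785) and -0.18 with the RNA integrity number as a covariate (adjusted p = 0.0639). At Day 15, +Fgf tissue was 2.51-fold below +Wnt tissue (log2 -1.33, SE 0.07, adjusted p = 2.71e-11). Cdkn1a exons share 273 bases with AC167363.2 on the opposite strand.

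Beside Cdkn1a, 15 of 16 other known p53 target genes were tested. From Day 10 to Day 12, 11 of the 15 fell and 3 rose with +Fgf, with a list median of -0.84 against 0.00 over all tested genes, and 12 fell and 2 rose with +Wnt, with a median of -0.83 against 0.01. By Day 15, 13 fell and 2 rose with +Fgf (median -1.53 against 0.00), and 11 fell and 4 rose with +Wnt (median -0.92 against 0.00). Of all tested genes, 27.8% (+Fgf) and 29.6% (+Wnt) were called lower by Day 12, and 36.4% and 40.2% by Day 15. With +Fgf to Day 12, the steepest falls on the log2 scale were those of Eda2r (-1.97), a receptor of the tumour necrosis factor family, the stress gene Sesn2 (-1.75) and the cyclin gene Ccng1 (-1.74). By Day 15 with +Fgf, Phlda3 and Plk2 were at -2.60 and -2.56, while the antiproliferative gene Btg2 rose by 2.38. The summed list lay at 2238.7 to 2433.3 CPM at Day 10 and at 993.8 to 1272.7 CPM over all 12 stimulated libraries. Trp53 itself, which encodes p53, fell from 215.8 ± 6.67 CPM at Day 10 to 92.7 ± 4.63 CPM by Day 15 with +Fgf and to 66.9 ± 5.10 CPM with +Wnt (log2 -1.22 and -1.69, adjusted p = 2e-11 and 2.55e-13). Between the Day 15 groups, 11 of the 15 p53 targets were lower and 2 higher in +Fgf tissue (median -0.69 against 0.05), Perp (-2.01) and Pmaip1 (-1.79) the lowest, and Cdkn1a was on the lower side too, whereas the mean of Trp53 was the higher with +Fgf. Of all tested genes, 30.6% were lower and 38.0% higher in that comparison.

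The promoter window of the upstream Cdkn1a start, shown because of this list, holds the 250 bases before the start in RefSeq GRCm38.p6 (chr17:29090729-29090978, plus strand), written 5′ to 3′ with a match to the p53 response element in capitals.
Cdkn1a: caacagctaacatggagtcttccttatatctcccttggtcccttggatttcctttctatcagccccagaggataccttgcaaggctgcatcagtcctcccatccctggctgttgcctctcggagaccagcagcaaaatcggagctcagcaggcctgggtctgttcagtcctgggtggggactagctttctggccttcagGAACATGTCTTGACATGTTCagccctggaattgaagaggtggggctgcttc
The element was searched as 2 half-sites without a spacer, with at most 1 letter off, after the sequence had been seen. It occurs in 25 of 32536 promoter windows of this length, or 0.0768%. The second Cdkn1a start (chr17:29093519-29093768) holds GC boxes (GGGCGG) and no match to the element. A match is a description of letters and says nothing of binding in these cells.

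Cdkn1b encodes p27, and lies on chr6:134920401-134925513 (plus strand). It rose in all 4 comparisons with Day 10. The libraries had 80.5, 78.4 and 76.6 CPM at Day 10, 106.6, 104.0 and 106.4 CPM in Day 12 +Fgf, and 99.3, 99.2 and 102.5 CPM in Day 12 +Wnt. They had 155.2, 159.1 and 163.8 CPM in Day 15 +Fgf and 112.4, 106.7 and 118.8 CPM in Day 15 +Wnt. No 2 groups overlapped, and Day 15 +Fgf was the highest. Against Day 10, Cdkn1b rose 2.03-fold by Day 15 with +Fgf (log2 1.02, SE 0.04, adjusted p = 4.88e-12) and 1.43-fold with +Wnt (log2 0.52, SE 0.04, adjusted p = 9.57e-09). At Day 12 the 2 stimuli differed by a log2 value of 0.07 (95% interval -0.02 to 0.17, adjusted p = 0.169), and at Day 15 by 0.50 (SE 0.04, adjusted p = 3.07e-08).

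Cdkn1c, which encodes p57 and is an imprinted gene, lies on chr7:143458339-143461050 (minus strand). It went up and then down in +Fgf tissue. Its level was 95.9, 98.1 and 92.8 CPM at Day 10, 153.3, 143.9 and 207.1 CPM in Day 12 +Fgf, and 54.2, 34.1 and 56.3 CPM in Day 15 +Fgf. In +Wnt tissue it was 79.4, 79.3 and 69.0 CPM at Day 12 and 52.7, 66.7 and 76.3 CPM at Day 15. The Day 12 +Fgf libraries were above all others, and the Day 15 +Fgf libraries overlapped those of Day 15 +Wnt. With +Fgf it rose 1.73-fold to Day 12 (log2 0.79, SE 0.17, adjusted p = 0.000739) and then fell 3.51-fold to Day 15 (log2 -1.81, SE 0.17, adjusted p = 1.25e-07). With +Wnt it was lower than Day 10 by 0.57 at Day 15 (SE 0.17, adjusted p = 0.00514), and the Day 12 value of -0.34 was not called (adjusted p = 0.0926). At Day 12, +Fgf tissue was 2.19-fold above +Wnt tissue (log2 1.13, adjusted p = 2.62e-05). The Day 15 difference of -0.45 (adjusted p = 0.0236) was not called without Day 15 +Fgf replicate 2 (-0.22, adjusted p = 0.177), without Day 15 +Wnt replicate 2 (-0.43, adjusted p = 0.0625) or without Day 15 +Wnt replicate 3 (-0.33, adjusted p = 0.118), nor with the RNA integrity number as a covariate (-0.23, adjusted p = 0.584). Cdkn1c exons share 625 bases with the antisense gene Gm44732.

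The summed Cip/Kip level per kilobase was 172.0 ± 6.67 at Day 10, 171.5 ± 20.3 in Day 12 +Fgf, 144.0 ± 2.51 in Day 12 +Wnt, 121.2 ± 6.61 in Day 15 +Fgf and 154.9 ± 3.72 in Day 15 +Wnt (SD, n = 3). Cdkn1a was the largest part at Day 10 (51.6%) and in both +Wnt groups (43.1% and 47.5%), Cdkn1c was the largest in Day 12 +Fgf (51.2%), and Cdkn1b was the largest in Day 15 +Fgf (55.1%).

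Cdkn2b encodes p15, the Ink4 protein best known as a target of TGF-β signalling, and was high in Day 12 +Fgf alone. It lies on chr4:89306299-89311039 (minus strand), next to Cdkn2a. The Day 12 +Fgf libraries had 11.3, 7.52 and 18.7 CPM, or 118 to 293 reads. The Day 10 libraries had 0.273, 0.334 and 0.458 CPM, which is 4 to 6 reads each. Day 12 +Wnt had 0.818, 0.696 and 0.861 CPM, Day 15 +Fgf had 1.55, 1.10 and 1.70 CPM, and Day 15 +Wnt had 0.558, 1.12 and 0.491 CPM. Every Day 12 +Fgf library was above every other library, and the spread within that group was wide. Cdkn2b rose 18.5-fold on the fitted scale from Day 10 (log2 4.21, SE 0.29, adjusted p = 7.86e-09), while the ratio of the plain means was 35.3, since the added 0.3 CPM holds back the fold of low values. It fell 6.95-fold to Day 15 (log2 -2.80, SE 0.29, adjusted p = 5.43e-07), where it was still above Day 10 (log2 1.41, adjusted p = 0.000382). The Day 12 difference between the stimuli was 11.0-fold (log2 3.46, SE 0.29, adjusted p = 4.4e-08). The Day 12 +Wnt rise from Day 10 (log2 0.74, adjusted p = 0.0377) rested on few reads and had adjusted p of 0.0532 to 0.106 without Day 10 replicate 1 or 2 or any of the Day 12 +Wnt libraries. The Day 15 difference between the stimuli (log2 0.81, adjusted p = 0.0219) was not called without Day 15 +Fgf replicate 1 (adjusted p = 0.0563), without Day 15 +Fgf replicate 3 (adjusted p = 0.0736) or without Day 15 +Wnt replicate 1 or 3 (adjusted p = 0.0739 and 0.0928).

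Cdkn2a encodes p16 and, in another reading frame, p19Arf, which 1 entry cannot separate. It lies on chr4:89274471-89294653 (minus strand) and was low throughout, at 3 to 66 reads a library. Day 12 +Fgf had 2.85, 2.93 and 4.22 CPM and Day 15 +Fgf had 1.99, 1.37 and 1.63 CPM. The Day 10 libraries had 0.545, 1.07 and 1.15 CPM, those of Day 12 +Wnt had 0.503, 0.974 and 0.596 CPM, and those of Day 15 +Wnt had 0.186, 1.12 and 0.912 CPM. Both +Fgf groups were above all libraries of the other 3 groups, which overlapped one another. Cdkn2a rose from Day 10 to Day 12 with +Fgf (log2 1.59, SE 0.35, adjusted p = 0.000967), where it was also above +Wnt (log2 1.88, SE 0.35, adjusted p = 0.000232). Its value in Day 15 +Fgf against Day 10 was 0.71 and was not called (95% interval -0.02 to 1.44, adjusted p = 0.0733). The fall in +Fgf tissue to Day 15 (log2 -0.88, adjusted p = 0.0389) was not called without any 1 of the 3 Day 12 +Fgf libraries or without Day 15 +Fgf replicate 2 or 3 (adjusted p of 0.053 to 0.135). The Day 15 difference between the stimuli was 1.05 (adjusted p = 0.0129) and became 0.57 (adjusted p = 0.0954) without Day 15 +Wnt replicate 1, the library with 3 reads.

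Promoter windows of the Ink4 genes differed in the letters they hold. That of Cdkn2b is shown because the gene rose 18.5-fold within 2 days (250 bases before the start, RefSeq GRCm38.p6, chr4:89311033-89311282, minus strand). None of the 9 elements searched was found in it, and it has no capitals.
Cdkn2b: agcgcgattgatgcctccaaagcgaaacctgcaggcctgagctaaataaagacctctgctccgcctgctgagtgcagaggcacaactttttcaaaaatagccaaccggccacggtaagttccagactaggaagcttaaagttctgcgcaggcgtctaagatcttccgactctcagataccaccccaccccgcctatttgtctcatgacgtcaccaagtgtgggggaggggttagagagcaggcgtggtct
Elements were searched on both strands. They were the GC box with the letters GGGCGG (33.0% of all 32536 windows), the E-box with CACGTG (6.04%), the E2F core with TTCCCGC (3.84%) and the TCF/LEF core with CTTTGA (13.9%). The others were the AP-1 site with TGAGTCA (4.45%), the forkhead core with GTAAACA (3.17%), the TATA element with TATAAA (12.3%), the CCAAT box (33.8%) and the p53 response element.

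Cdkn2c and Cdkn2d, which encode p18 and p19, were called higher than at Day 10 in all 4 stimulated groups. Cdkn2c, on chr4:109660876-109667189 (minus strand), had 2.04, 2.21 and 2.67 CPM at Day 10. It had 6.78, 7.52 and 9.07 CPM in Day 12 +Fgf and 7.93, 9.47 and 6.29 CPM in Day 12 +Wnt. At Day 15 it had 18.1, 17.7 and 15.7 CPM with +Fgf and 11.7, 10.4 and 10.7 CPM with +Wnt. Every stimulated library was above every Day 10 library, the 2 Day 12 groups overlapped, and the Day 15 groups stood apart with +Fgf the higher. Cdkn2c rose 3.10-fold with +Fgf and 3.12-fold with +Wnt by Day 12 (log2 1.63 and 1.64, SE 0.15 each, adjusted p = 1.81e-07 and 1.23e-07), and the 2 stimuli differed by -0.01 (95% interval -0.33 to 0.31, adjusted p = 0.965). By Day 15 it was 6.72-fold above Day 10 with +Fgf (log2 2.75, adjusted p = 7.21e-11) and 4.34-fold with +Wnt (log2 2.12, adjusted p = 9.29e-10). The Day 15 difference between the stimuli was 0.63 (SE 0.15, adjusted p = 0.0013), or 0.17 (adjusted p = 0.626) with the RNA integrity number as a covariate. The rise between Day 12 and Day 15 was 2.17-fold with +Fgf (log2 1.12, adjusted p = 8.43e-06), which that covariate reduced to 0.60 (adjusted p = 0.122). With +Wnt it was 1.39-fold (log2 0.48, adjusted p = 0.0099), 0.33 (adjusted p = 0.0686) without Day 12 +Wnt replicate 3, and 0.09 (adjusted p = 0.58) after quantile normalization.

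Cdkn2d, on chr9:21288410-21291407 (minus strand), had 18.1, 16.0 and 19.4 CPM at Day 10, 27.8, 26.9 and 30.4 CPM in Day 12 +Fgf and 23.0, 24.8 and 25.6 CPM in Day 12 +Wnt. At Day 15 it had 45.9, 48.4 and 47.7 CPM with +Fgf and 22.8, 24.5 and 24.4 CPM with +Wnt. Day 15 +Fgf was above every other library, and the 2 +Wnt groups overlapped. Against Day 10, Cdkn2d rose 2.64-fold by Day 15 with +Fgf (log2 1.40, SE 0.08, adjusted p = 9.23e-11) and 1.34-fold with +Wnt (log2 0.42, SE 0.08, adjusted p = 0.000102). In +Wnt tissue the difference between Day 12 and Day 15 was -0.03 (95% interval -0.20 to 0.13, adjusted p = 0.715). The stimuli differed by 0.98 at Day 15 (SE 0.08, adjusted p = 9.12e-09). Their Day 12 difference of 0.21 (adjusted p = 0.0317) was not called without Day 12 +Fgf replicate 1 or 3 or without Day 12 +Wnt replicate 1 or 2 (adjusted p of 0.0546 to 0.136).

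Cdkn1b, Cdkn2c and Cdkn2d were the 3 genes with their highest level in Day 15 +Fgf among the inhibitors, and their promoter windows are shown together for that reason (250 bases before the start, RefSeq GRCm38.p6, 5′ to 3′ of the gene). The capitals mark GC boxes in all 3 windows, CCAAT boxes in Cdkn1b (chr6:134920151-134920400) and Cdkn2d (chr9:21291210-21291459), and an E2F core in Cdkn2c (chr4:109666757-109667006), in either orientation. For Cdkn2c this is the upstream of 2 starts, and the window of its other start (chr4:109665373-109665622) holds none of the 9 elements. GC boxes are not particular to these genes. They also lie in both Ccnd3 windows and those of the upstream Cdkn2a start and the second Cdkn1a start, genes not highest in Day 15 +Fgf. The upstream Cdkn2a window holds an E2F core too, and 1 of the Ccnd3 windows (chr17:47593217-47593466) holds a CCAAT box. The windows shown for Cdkn1b, Cdkn2c and Cdkn2d have 63.6% to 77.2% GC bases, against a median of 52.4% over all windows.
Cdkn1b: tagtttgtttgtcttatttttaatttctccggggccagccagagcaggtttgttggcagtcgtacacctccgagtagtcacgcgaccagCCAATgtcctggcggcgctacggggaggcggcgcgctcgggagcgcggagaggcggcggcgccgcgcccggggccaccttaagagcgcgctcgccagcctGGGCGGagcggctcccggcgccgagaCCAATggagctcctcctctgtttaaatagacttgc
Cdkn2c: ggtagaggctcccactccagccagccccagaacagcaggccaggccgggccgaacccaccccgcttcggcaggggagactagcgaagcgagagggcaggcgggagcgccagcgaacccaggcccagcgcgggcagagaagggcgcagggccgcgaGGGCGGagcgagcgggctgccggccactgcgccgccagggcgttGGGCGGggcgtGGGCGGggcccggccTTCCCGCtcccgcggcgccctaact
Cdkn2d: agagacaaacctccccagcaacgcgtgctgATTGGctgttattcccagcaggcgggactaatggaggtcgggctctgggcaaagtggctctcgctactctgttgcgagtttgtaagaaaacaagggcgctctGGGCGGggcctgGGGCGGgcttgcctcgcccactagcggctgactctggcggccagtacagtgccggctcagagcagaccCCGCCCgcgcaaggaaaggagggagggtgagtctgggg
RefSeq windows were found for 7 of the 10 genes, with none for Ccnd1, Ccnd2 and Cdkn1c.

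The summed Ink4 level per kilobase was 15.9 ± 1.58 at Day 10, 39.7 ± 7.06 in Day 12 +Fgf, 25.7 ± 1.69 in Day 12 +Wnt, 51.7 ± 0.850 in Day 15 +Fgf and 28.0 ± 0.755 in Day 15 +Wnt (SD, n = 3). Cdkn2d was the largest part in each group, from 50.9% in Day 12 +Fgf to 78.8% at Day 10. Cdkn2b made up 22.0% in Day 12 +Fgf and 1.60% to 2.23% in the other 4 groups, and Cdkn2c went from 13.1% at Day 10 to 30.0% and 35.4% at Day 15 with +Fgf and +Wnt.

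**Figure D3:**
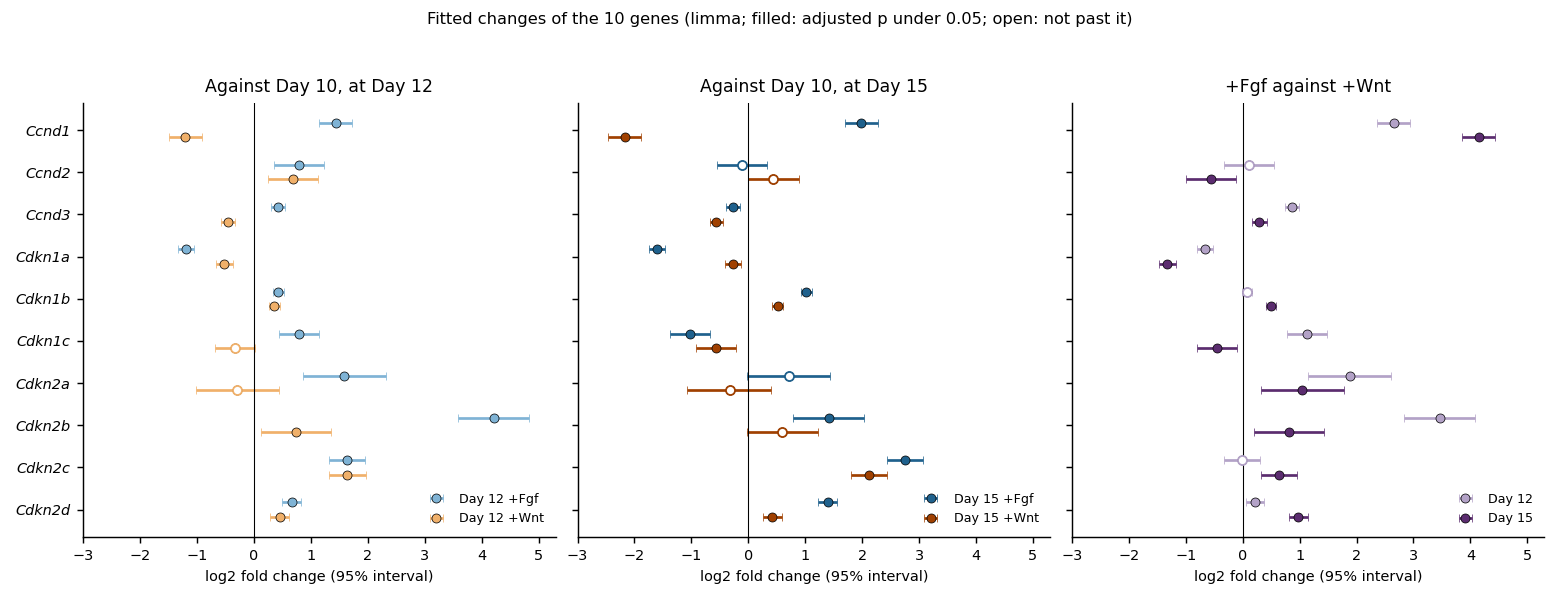
Fitted log2 fold changes with 95% intervals (horizontal axis) for the 10 genes in 6 comparisons; filled points have an adjusted p under 0.05 in limma and open points do not. Ccnd1 reaches 4.15 between the Day 15 groups, Cdkn2b reaches 4.21 from Day 10 to Day 12 with +Fgf, and Cdkn1a lies below 0 in all 6.

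The G1/S genes that these proteins act with, a list of 22 genes including Cdk4, Cdk6, the E-type cyclins, the retinoblastoma family and the E2F factors, were all tested. At Day 15, 20 of the 22 were higher and 1 was lower in +Fgf than in +Wnt tissue, with a list median of 0.64 against 0.05 over all tested genes. The largest differences were those of Tfdp2 (2.41), a partner of E2F proteins, E2f1 (1.98) and Ccne2 (1.70). At Day 12, 15 were higher and 1 was lower with +Fgf (median 0.27 against 0.00), led by Cdk6 (1.34). Of all tested genes, 38.0% were higher with +Fgf at Day 15 and 26.3% at Day 12. In +Wnt tissue 19 fell and 2 rose from Day 12 to Day 15 (median -0.72 against -0.02), and in +Fgf tissue 11 fell and 4 rose (median -0.28 against -0.02). The shares of all tested genes that fell were 35.5% and 29.9%, respectively. Cdk4, a partner kinase of the D-type cyclins, had 1040.6 ± 24.4 CPM at Day 10 (SD, n = 3). At Day 12 it was lower with +Fgf (942.7 ± 33.8 CPM) than with +Wnt (1086.9 ± 44.7 CPM), and these groups did not overlap. By Day 15 it had 748.4 ± 14.6 CPM with +Fgf and 614.8 ± 16.1 CPM with +Wnt. Cdk6 stayed between 1.61 and 5.81 CPM in all 15 libraries.

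The proliferation markers, 18 genes of DNA replication and mitosis, were all higher in +Fgf than in +Wnt tissue at Day 15 (median 1.13 against 0.05), among them Mki67 (1.71), Top2a (1.69) and Cdc20 (1.46). All 18 fell in +Wnt tissue from Day 12 to Day 15 (median -1.23 against -0.02), whereas 14 fell and 1 rose in +Fgf tissue (median -0.38 against -0.02). The difference between the 2 changes was called for 18 of 18, each in favour of +Fgf. Over all tested genes, 38.0% were higher in Day 15 +Fgf than in Day 15 +Wnt. From Day 12 to Day 15, 35.5% fell in +Wnt tissue and 29.9% in +Fgf tissue, and the difference was called in favour of +Fgf for 27.0%. Mki67 had 490.5 ± 39.3 CPM with +Fgf at Day 15 and 149.1 ± 6.86 CPM with +Wnt. Between Day 10 and Day 15 +Fgf the markers were divided, with 8 higher and 9 lower (median -0.06 against 0.00), as were the G1/S partners, with 8 higher and 11 lower (median -0.17 against 0.00). Of all tested genes, 36.2% were called higher and 36.4% lower in Day 15 +Fgf than at Day 10. The summed markers lay at 4050.7 to 4151.1 CPM in Day 15 +Fgf, below the 4765.1 to 5162.5 CPM of Day 12 +Fgf, whereas the means of Ccnd1, Cdkn1b, Cdkn2c and Cdkn2d were at their highest in Day 15 +Fgf.

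**Figure D4:**
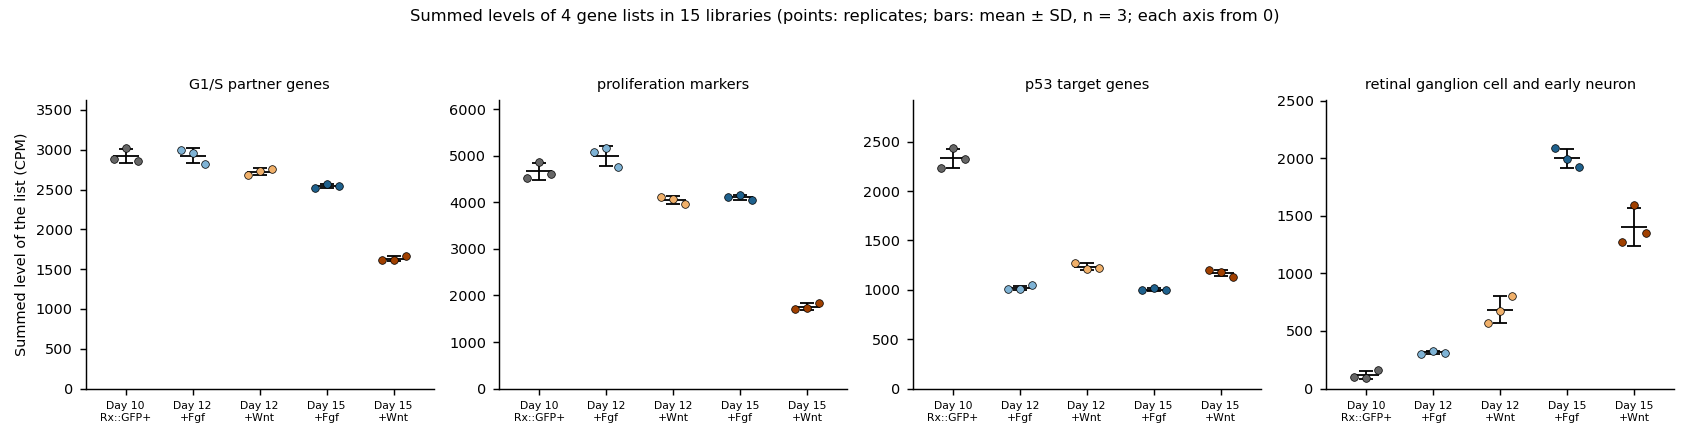
Summed level (CPM) of the G1/S partner genes, the proliferation markers, the p53 target genes and the retinal ganglion cell and early neuron markers in the 15 libraries; points are replicates and bars the mean ± SD of 3 libraries, on axes from 0. Proliferation markers drop to 1698.9 to 1836.5 CPM in Day 15 +Wnt, p53 targets stand at 2238.7 to 2433.3 CPM at Day 10 and at or below 1272.7 CPM in all other libraries, and neuron markers reach 1920.3 to 2085.7 CPM in Day 15 +Fgf.

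Markers of other cell types moved with these groups. The retinal ganglion cell and early neuron list summed to 91.0 to 159.2 CPM at Day 10, 303.3 to 328.0 CPM in Day 12 +Fgf and 571.9 to 805.1 CPM in Day 12 +Wnt. At Day 15 it summed to 1920.3 to 2085.7 CPM with +Fgf and to 1270.0 to 1590.0 CPM with +Wnt. The sum was thus highest in Day 15 +Fgf, where Cdkn1b, Cdkn2c and Cdkn2d were highest. At Day 12 the sum was higher with +Wnt than with +Fgf, but the list was split. With +Fgf, 6 of its 10 genes were called lower and 4 higher, among the latter Pou4f2 (4.89), Atoh7 (4.00) and Isl1 (3.74). Of all tested genes, 26.3% were called higher and 25.2% lower with +Fgf at Day 12. Between the Day 12 groups, the difference of Cdkn1b (100.3 CPM with +Wnt, 105.7 CPM with +Fgf) was not called, and Cdkn2c overlapped. Cdkn2d (24.5 and 28.4 CPM) was called lower with +Wnt. That call was lost without Day 12 +Fgf replicate 1 or 3 or Day 12 +Wnt replicate 1 or 2. In Day 15 +Fgf, 10 of the 10 list genes were called higher than at Day 10, against 36.2% of all tested genes. Against Day 15 +Wnt, 7 were called higher and 1 lower. That comparison, also used for the next lists, called 38.0% of all tested genes higher and 30.6% lower. The photoreceptor precursor list, with 4 of 7 genes tested and all 4 called higher in Day 15 +Fgf than in Day 15 +Wnt, reached 183.2 to 227.0 CPM in Day 15 +Fgf and 15.2 to 36.1 CPM elsewhere, with Rcvrn at 3 reads or fewer throughout. Neural crest and mesenchyme markers (4 of 6 tested, all 4 higher in Day 15 +Wnt) summed to 160.8 to 194.2 CPM in Day 15 +Wnt and 41.9 to 79.1 CPM elsewhere, with Sox10 and Foxd3 at 3 reads or fewer in the +Wnt groups. The lens list (1 of 4 tested) stayed at 0.639 to 6.69 CPM, apart from 13.8 to 19.3 CPM in Day 15 +Wnt. Pluripotent cell markers summed to 45.0 to 57.9 CPM at Day 10, 4.02 to 17.6 CPM in Day 12 +Fgf, 1.03 to 15.0 CPM in Day 15 +Fgf and 11.4 to 55.8 CPM over the 6 +Wnt libraries. All 5 were called lower in Day 15 +Fgf than in Day 15 +Wnt, as Cdkn1a was. In the +Wnt groups against Day 10, 0 of the 5 were called, with list medians of -0.72 at Day 12 and -0.57 at Day 15. Of all tested genes, 29.6% and 40.2% were called lower there. Cdkn1a was called lower at both days, with values of -0.52 and -0.27. The part of these cell types in the changes of the 10 genes was not tested.

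Of 12 genes known to regulate transcription of these inhibitors and cyclins, 8 fell and 1 rose from Day 10 to Day 12 with +Fgf (median -0.31 against 0.00), and 9 fell and 1 rose with +Wnt (median -0.50 against 0.01). By Day 15, 9 fell and 2 rose with +Fgf (median -0.37 against 0.00), and 8 fell and 1 rose with +Wnt (median -0.52 against 0.00). The shares of all tested genes called lower were 27.8% (+Fgf) and 29.6% (+Wnt) by Day 12, and 36.4% and 40.2% by Day 15. Myc went from 124.5 ± 11.2 CPM at Day 10 by Day 12 to 83.9 ± 8.71 CPM with +Fgf and to 7.56 ± 0.0951 CPM with +Wnt, a Day 12 difference of 3.42 (SE 0.15, adjusted p = 1.16e-11). Mycn stood at 136.2 ± 3.74 CPM with +Fgf and at 51.6 ± 6.84 CPM with +Wnt at Day 15 (log2 1.40, adjusted p = 8.66e-10). Foxo1, a forkhead factor known to act on Cdkn1b, was lower in Day 15 +Fgf than in Day 15 +Wnt (log2 -1.08, SE 0.11, adjusted p = 2.17e-07).

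Among 13754 genes, the closest in pattern to each of the 10 were found by Pearson correlation of log2(CPM + 0.3) over the 15 libraries, which share groups and depth. For Ccnd1 they were Dtx4 (r = 0.996), a Deltex family gene of the Notch pathway, and Lman1 (0.990). Those of Cdkn2b were Plat (0.984), which encodes tissue plasminogen activator, and Ptgs2 (0.964), which encodes cyclooxygenase-2, and those of Cdkn2a were Smad7 (0.943), an inhibitor of TGF-β signalling, and Nceh1 (0.933). Ccnd3 was nearest to Zyx (0.977) and Tln1 (0.976), both genes of focal adhesions, and Cdkn1c to Fhl3 (0.935) and Pxdn (0.933). Cdkn1a went with Ano3 (0.972) and Eno3 (0.971), Cdkn1b with Pafah1b3 (0.981) and Camk2n1 (0.979), Cdkn2c with Abcg1 (0.977) and Tfap2a (0.976), and Cdkn2d with Ppp1r14a (0.981) and Cdc42ep4 (0.978). The weakest best matches were those of Ccnd2, namely Tspan6 (0.853) and Stat4 (0.848). Among the 10 genes themselves, r was 0.95 for Cdkn1b with Cdkn2d, 0.91 for Cdkn1b with Cdkn2c and 0.84 for Cdkn2a with Cdkn2b, and -0.92 for Cdkn1a with Cdkn2d. Ccnd1 and Ccnd2 had r = -0.24.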

How the data were processed

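RNA-Seq libraries (TruSeq Stranded mRNA) of 15 samples in 5 groups of 3 were analysed, and groups came from the GEO titles. Per the submitters' processing notes, bcl2fastq 1.8.4, FastQC 0.10.1, TopHat2 2.0.8b, Cufflinks 2.1.1 and edgeR 3.2.4 were used with mm10. The deposited signal, normalized values that the authors call CPM, summed to 936418 to 1075448 per library. Division by the worth of 1 read gave whole reads for 100.0% of the values above 0 (within 0.01 read), and the per-sample files held the same values as the table. An edgeR 4.0.16 quasi-likelihood test on these reads, used as an alternative, called 9318 of 13845 genes between the Day 15 groups, where the main test called 9505.

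The main test was limma 3.58.1 (R 4.3.3) on log2(CPM + 0.3) with a mean-variance trend and 5 group means, for 9 comparisons, two-sided. It was also run on simulated data in which far fewer genes changed than here, so that run does not show its error rate in these comparisons. Genes needed 1 CPM of the column total in 3 libraries. Alternatives were pseudocounts of 0.05 and 1, no filter and one at 10 CPM, median-of-ratios and quantile scaling, no trend, a replicate block, the RNA integrity number as a covariate (from the study's sample table), only the libraries compared, and leaving out each library. Levels per kilobase used the length of 1 annotated transcript (GRCm38) a gene. Confidence intervals are at 95%. No library pair of a group agreed within sampling noise.

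The genes and lists were chosen with earlier results of these data known. All 10 genes are named, with, for each, the 2 genes of highest correlation and, per list and comparison, at most the 3 called genes of largest change; Cdk4, Rax, Six6 and gene levels beside them were named after their values were seen. The summed progenitor list is not reported here. Antisense reads could not be separated.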

Additional observations from a re-analysis of the deposited data

Results flagged for a closer look

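The change from Day 12 to Day 15 differed between +Fgf and +Wnt tissue for 8 of the 10 genes, by the interaction term of the limma fit with Benjamini-Hochberg adjustment over 13845 genes, where 47.9% of all tested genes passed. The log2 value of the +Fgf change minus the +Wnt change was 1.5 for Ccnd1 (SE 0.19, adjusted p = 9.29e-06), which rose in one tissue and fell in the other. It was 0.43 for Cdkn1b and 0.64 for Cdkn2c, which rose in both tissues, and 0.77 for Cdkn2d, which rose with +Fgf and was not called with +Wnt. It was -2.66 for Cdkn2b (SE 0.41, adjusted p = 6.24e-05) and -1.58 for Cdkn1c (SE 0.24, adjusted p = 3.93e-05), which fell with +Fgf and were not called with +Wnt. Cdkn2b entered the tests only through its higher groups, so its value is not independent of the filter and adds no support of its own to the count. It was -0.58 for Ccnd3, which also fell with +Fgf and was not called with +Wnt, and -0.65 for Cdkn1a, which fell with +Fgf and rose with +Wnt. The Cdkn2c value became 0.55 (adjusted p = 0.0563) without Day 12 +Fgf replicate 1, 0.51 (adjusted p = 0.0625) without Day 12 +Wnt replicate 2, and 0.11 (adjusted p = 0.831) with the RNA integrity number as a covariate. For Cdkn2a the value was -0.84 (adjusted p = 0.172), or -1.31 (adjusted p = 0.0124) without Day 15 +Wnt replicate 1. For Ccnd2 it was -0.66 (adjusted p = 0.0762), or -0.94 (adjusted p = 0.00432) without Day 15 +Fgf replicate 3.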

How the results depend on the processing

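Of 90 values (10 genes in 9 comparisons), 72 were called, and 56 of these were called under every alternative that gave a value (Cdkn2a and Cdkn2b have none with the filter at 10 CPM), among them the Ccnd1, Cdkn1b and Cdkn2d differences between the Day 15 groups. The covariate for RNA integrity ended 14 calls and left 4 of 10 genes called between the Day 15 groups, and over all genes it lowered the calls from 7899 to 3591 for Day 15 against Day 12 in +Fgf and from 6636 to 3842 for the difference between the 2 changes. Leaving out 1 library ended 10 calls. The only called value that changed sign was Ccnd2 between the Day 15 groups (0.12 with that covariate). The covariate also turned Ccnd2 in Day 15 +Fgf against Day 10 (0.19), Ccnd2 in the difference of changes (0.10) and Cdkn2c between the Day 12 groups (0.05). The Cdkn2c value also turned after quantile normalization (0.02) and without 1 of 4 Day 12 libraries (0.08, 0.01, 0.00 and 0.13, from a range of -0.16 to 0.13). Cdkn2a in Day 15 against Day 12 +Wnt turned with a pseudocount of 1 (0.01), in edgeR (0.12) and without Day 12 +Wnt replicate 2 (0.15) or Day 15 +Wnt replicate 1 (0.43, range -0.34 to 0.43), and without the latter it also turned against Day 10 (0.14, range -0.63 to 0.14). Cdkn2d in the same comparison turned with median-of-ratios scaling (0.00) and in edgeR (0.02), Ccnd3 after quantile normalization (0.00), Cdkn2b without Day 15 +Wnt replicate 3 (0.02, range -0.40 to 0.02), and Ccnd2 in Day 15 +Fgf against Day 10 without Day 15 +Fgf replicate 1 (0.25, range -0.39 to 0.25). The cause was not tested. Replicate numbers did not pair the samples, since no comparison had every pair's correlation over 0.1 and 6 of 15 libraries correlated best with their own number. A replicate block added 2 calls of Ccnd2, in Day 15 +Wnt against Day 10 (log2 0.44, adjusted p = 0.0341) and in the difference of changes (-0.66, adjusted p = 0.044), and changed no other; the Ccnd2 to Ccnd1 ratio differences stayed at -2.54 and -4.70 under the pairing. Depth limits Cdkn2a and, outside Day 12 +Fgf, Cdkn2b, which rest on 3 to 27 and 4 to 24 reads a library there.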
